A study of Mus musculus with 18 samples.

Results

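Ribosome footprints from mouse brain were described at the codons of the amino acids that have exactly a C-ending and a T-ending codon: phenylalanine (Phe), tyrosine (Tyr), histidine (His), asparagine (Asn), aspartate (Asp) and cysteine (Cys). These 12 codons were taken by the amino acid named in the codon table, out of 61 sense codons; this rule reads no measured value, but the group was chosen with earlier results of these data known. The table counts the codon lying in the ribosomal A site, where the incoming aminoacyl-tRNA binds, in 3 wild-type (WT) and 3 Ftsj1 knockout (KO) mice. All were C57BL/6 males aged 8 weeks, with 1 MiSeq library of ribosome-contained mRNA per mouse, and the labels do not describe the knockout allele. Total mRNA and a separate HiSeq library of ribosome-contained mRNA from the same mice were used for comparison.

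In each of these amino acids a tRNA with guanosine, or a base derived from it, at the wobble position reads both codons: the C-ending codon by a standard pair and the T-ending codon (U in the mRNA) by a wobble pair. In the tRNAs for Tyr, His, Asn and Asp, the wobble base is replaced by queuosine, which is made by the Qtrt1 and Qtrt2 enzyme from a dietary precursor. In tRNA-Phe the ribose of the wobble guanosine is methylated by Ftsj1 with its partner Wdr6, and Ftsj1 also methylates another ribose of the same anticodon loop. The comparison asked whether loss of this methyltransferase changes how often ribosomes are found with these codons in the A site, and whether it shifts the balance between the C-ending and the T-ending codon. A codon that takes longer to decode is held in the A site longer, and its share of footprints is then higher; the share also depends on how often the translated mRNAs use the codon.

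The codons are listed by amino acid, with the third base, by which the members of a pair differ, in capitals.
Phe: ttC and ttT
Tyr: taC and taT
His: caC and caT
Asn: aaC and aaT
Asp: gaC and gaT
Cys: tgC and tgT

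Sense codons per A-site library numbered from 48481 to 70947, with KO replicate 2 the shallowest, and 9228 to 13105 of these counts fell on the 12 codons. Wilson 95% intervals of the share of a codon in a single library were between 0.128 and 0.318 percentage points wide; they cover counting error only. Over the 61 codons KO replicate 3 differed from KO replicates 1 and 2 by more than sampling noise (chi-square p = 1.71e-05 and 0.0102). Of the marker genes checked in the HiSeq libraries, the neuronal genes Stmn2 (1672 to 1809 CPM, counts scaled to the library total, in ribosome-contained mRNA) and Nefl (3642 to 4350) were abundant, and the liver gene Alb stayed at or below 2.57. The brain markers Syt1 and Csf1r were at or near 0 in this table. Both Ftsj1 transcripts had 0 counts in every HiSeq library, WT and KO alike, so that the knockout was not checked here.

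Footprints with a Phe codon in the A site were more frequent in KO brain. The Phe codons together made up 2.42%, 2.59% and 2.41% of sense codons in WT replicates 1 to 3 and 3.35%, 3.26% and 3.33% in KO replicates 1 to 3. The lowest KO library was thus above the highest WT library by more than the whole range within either genotype. Their joint share rose 1.34-fold (95% interval 1.29 to 1.40; log2 fold change 0.43, SE 0.0297, edgeR adjusted p = 1.48e-22 over 20 amino acids). The edgeR p-value rests on a spread estimated in part from all 20 amino acids, not from the 3 mice per genotype alone. With limma on log2 shares the adjusted p was 4.77e-08, and the exact permutation p was 0.1, the smallest that 3 mice against 3 can give. Of the 6 amino acids 2 were called, Phe higher and Asp lower, beside 4 of all 20, a background of 20%. Phe had the highest fold change of the 20.

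The C-ending codon TTC stood at 1.40%, 1.53% and 1.41% in the WT libraries and at 1.96%, 2.00% and 1.94% in the KO libraries. For TTT the values were 1.02%, 1.05% and 0.997% in WT and 1.39%, 1.26% and 1.39% in KO. The KO libraries were above the WT libraries for both codons, and KO replicate 2, which had the highest TTC share, had the lowest TTT share of its genotype. TTC and TTT ranked first and second of the 61 sense codons by log2 fold change, at 0.44 (SE 0.0430) and 0.40 (SE 0.0482). When the other 10 codons served as the library size, so that Phe was set against the rest of the group, the log2 fold changes were 0.45 for TTC (adjusted p = 1.19e-08, edgeR) and 0.41 for TTT (adjusted p = 2.68e-07, edgeR). Among WT mice Phe codons took 13.3% ± 0.426 of all counts at the 12 codons, compared to 17.2% ± 0.139 among KO mice (SD, n = 3 each). The KO SD was below what counting alone gives at this depth, so it is not a measure of the error.

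Tyr, like Phe an aromatic amino acid, was higher at its C-ending codon. TAC made up 1.22%, 1.21% and 1.27% of sense codons in WT and 1.40%, 1.32% and 1.38% in KO. All KO values lay above all WT values, though the gap of KO replicate 2 to WT replicate 3 was only a fraction of the counting interval of either. The model gave a 1.11-fold rise (95% interval 1.05 to 1.18; log2 0.15, SE 0.0417, edgeR adjusted p = 0.0148). TAT was at 0.918%, 0.922% and 0.850% in WT and at 0.870%, 0.833% and 0.924% in KO. Its groups overlapped and its log2 fold change was -0.03 (SE 0.0591, edgeR adjusted p = 0.871). Tyr codons together did not pass (1.05-fold, edgeR adjusted p = 0.118), and the TAC call was lost without WT replicate 1, WT replicate 2, KO replicate 1 or KO replicate 3 (edgeR adjusted p 0.0582 to 0.0946). It was also lost in DESeq2 (adjusted p = 0.222), in limma on log2 shares (adjusted p = 0.0563) and with replicates 1 and 2 of each genotype summed (edgeR adjusted p = 0.149).

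Asp codons, the most frequent of the group, were lower in KO brain. Together they made up 6.53%, 6.48% and 6.57% of sense codons in WT and 6.38%, 6.14% and 6.18% in KO, without overlap. The joint share fell by 0.07 on the log2 scale (SE 0.0238, 95% interval of the fold 0.925 to 0.987, edgeR adjusted p = 0.0461). Both codons had nearly the same estimate, -0.07 for GAC (SE 0.0348) and -0.07 for GAT (SE 0.0320), and neither passed singly (edgeR adjusted p = 0.231 and 0.207). GAC ran from 3.50% to 3.56% in WT and from 3.30% to 3.48% in KO, and GAT from 2.97% to 3.03% and from 2.85% to 2.90%. With Phe codons left out of the library size the Asp estimate was -0.05 and did not pass (edgeR adjusted p = 0.0998), while with TMM it was -0.07 and passed (edgeR adjusted p = 0.0299). The Asp call was also lost without any of the 3 WT libraries or KO replicate 2 or 3 (edgeR adjusted p 0.0859 to 0.169).

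Cys codons gave the lowest fold change of the 61 at the T-ending codon. TGT stood at 0.946%, 0.929% and 0.927% in WT and at 0.847%, 0.790% and 0.888% in KO, again without overlap. The log2 fold change of -0.14 (SE 0.0582) did not pass (edgeR adjusted p = 0.114), and it passed without KO replicate 3 (adjusted p = 0.0399, edgeR). The SD between WT mice, 0.0104 percentage points, was smaller than the 0.0379 that counting alone gives at this depth, so the tightness of the WT values is not a measure of the error. TGC had mean shares of 1.23% ± 0.0602 (WT) and 1.23% ± 0.0300 (KO; SD over 3 mice each), with overlapping groups and a 95% interval of the fold from 0.943 to 1.07. Cys codons together stood at 2.16% ± 0.0590 and 2.08% ± 0.0484 (edgeR adjusted p = 0.288).

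His and Asn codons were not called. CAT, the T-ending His codon, had shares of 0.757%, 0.833% and 0.822% in WT and 0.927%, 0.889% and 0.804% in KO. KO replicates 1 and 2 were above every WT library, and KO replicate 3 was inside the WT range. Its log2 fold change was 0.12 (SE 0.0622, edgeR adjusted p = 0.231). Single mice moved it both ways: leaving out KO replicate 3 gave 0.18, which passed (edgeR adjusted p = 0.0399), and it was 0.07 without KO replicate 1 (edgeR adjusted p = 0.678) or WT replicate 1 (edgeR adjusted p = 0.540). CAC had mean shares of 1.28% ± 0.0230 (WT) and 1.28% ± 0.0329 (KO; SD over 3 mice each), and its 95% interval of the fold ran from 0.940 to 1.06. For the Asn codons the log2 fold changes were 0.05 for AAC (SE 0.0398, edgeR adjusted p = 0.461) and 0.01 for AAT (SE 0.0401, edgeR adjusted p = 0.940), with overlapping groups at both. The Asn total stood at 3.15% ± 0.0330 and 3.23% ± 0.0600, a 95% interval of the fold from 0.986 to 1.06, and the His total at 2.08% ± 0.0245 and 2.15% ± 0.0898, from 0.977 to 1.09.

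In all, 3 of the 12 codons rose and 0 fell, against a background of 8.20% of sense codons called in either direction. In edgeR 5 of the 12 had an unadjusted p under 0.05, beside 14 of the 61 sense codons. DESeq2 called 2, both for Phe. The genotypes were fully separated at 6 of the 12, with KO above at 3 and below at 3, against a background of 26.2% of sense codons; the totals were separated for 3 of 6 amino acids, against 30.0% of the 20. The median log2 fold change of the 12 was 0.01, beside -0.00 over the 61. As 1 quantity, the 12 codons took 18.5%, 18.7% and 18.4% of sense codons in WT and 19.5%, 19.0% and 19.2% in KO, a difference of 0.719 percentage points (exact permutation p = 0.1, two-sided, the smallest that 3 mice against 3 can give). Without the Phe codons the mean share was 16.1% ± 0.0635 (WT) and 15.9% ± 0.220 (KO; SD, n = 3 per genotype; exact permutation p = 0.4), and the direction turned. The queuosine amino acids Tyr, His, Asn and Asp together held 13.9% ± 0.00451 in WT and 13.9% ± 0.242 in KO (exact permutation p = 1, n = 3 each). This WT SD, like that without the Phe codons, was below what counting alone gives at this depth. It is thus not a measure of the error.

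The balance between T-ending and C-ending codons was compared as the ratio of their counts within a library, which does not depend on library size. Of the 6 amino acids, 0 passed in limma over the genetic code's 16 pairs of T-ending and C-ending codons, a background of 0.00%. In limma 2 of the 6 had an unadjusted p under 0.05, beside 3 of the 16 pairs. An edgeR interaction test called 0 of the 6. The C-ending codon was the more frequent in every library for every amino acid: T-ending shares ran from 36.7% for His in WT replicate 1 to 46.4% for Asp in the same library. Wilson 95% intervals of these shares were between 2.87 and 6.04 percentage points wide, so that differences of a few points are near the counting error of a library.

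Tyr had the largest estimate among the 16 pairs. TAT made up 42.8%, 43.2% and 40.0% of Tyr codons in WT and 38.2%, 38.7% and 40.0% in KO, with WT replicate 3 and KO replicate 3 at nearly the same value. The log2 ratio of TAT to TAC was lower by 0.18 in KO (estimate -0.18, SE 0.0630, limma adjusted p = 0.0926). Limma gave the same SE to all 16 pairs, so that it does not describe the spread of Tyr alone. The Tyr difference passed without WT replicate 3 (adjusted p = 0.0352, limma). TAC rose and TAT did not pass, but by this test the pair was not shown to differ in response. Cys came next: TGT made up 43.9%, 41.7% and 43.9% of Cys codons in WT and 41.4%, 38.6% and 41.7% in KO, an estimate of -0.16 (limma adjusted p = 0.123), with KO replicate 3 just below WT replicate 2; without KO replicate 2 it was -0.10. His had the opposite sign, 0.12 (limma adjusted p = 0.183), at 36.7%, 39.5% and 39.5% in WT and 41.4%, 41.4% and 39.0% in KO; without WT replicate 1 the estimate was 0.07.

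For Phe, TTT made up 42.1%, 40.7% and 41.5% of Phe codons in WT and 41.4%, 38.6% and 41.8% in KO. The groups overlapped, and the estimate of -0.05 had a 95% interval of the fold from 0.886 to 1.06 (limma adjusted p = 0.670), set beside the 1.36-fold and 1.32-fold rises of the codons themselves. Asn was at -0.04 (limma adjusted p = 0.698) and Asp at 0.00 (adjusted p = 0.974, limma), Asp with T-ending shares between 45.4% and 46.4% in all 6 libraries. Summed over the 6 amino acids, the T-ending codons took 43.2%, 43.0% and 43.3% of the 12 codons in WT and 42.3%, 42.0% and 42.8% in KO. This difference of -0.788 percentage points left the groups apart (exact permutation p = 0.1, the smallest possible). It was -0.694 without Phe (exact permutation p = 0.1) and -0.406 over the queuosine amino acids alone, where the groups overlapped (exact permutation p = 0.2, n = 3 each).

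What the mRNAs on ribosomes encode was computed per mouse from the HiSeq ribosome-contained counts, each transcript's codon composition being weighted by its count. This expected share of the 12 codons was 19.9% ± 0.00595 (SD, n = 3) among WT mice and 0.0293 percentage points higher among KO mice. Among the 12, 2 passed in limma over the 61 codons, TTT and CAT, against a background of 39.3%, since the expected shares varied so little between mice that very small differences passed. Expected TTT rose from 1.61% to 1.63% of codons, by 0.02 on the log2 scale (limma adjusted p = 0.0303), and expected CAT from 0.837% to 0.844%, by 0.01 (limma adjusted p = 0.0303). Expected TTC was 2.42% in WT and 2.44% in KO, a log2 difference of 0.01 (limma adjusted p = 0.0681). These differences stood beside A-site changes of 0.40 and 0.44 for the Phe codons.

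Measured against what is encoded, Phe codons were under-represented in the A site of WT brain and less so in KO brain. The ratio of observed to expected share at TTC was 0.579, 0.633 and 0.580 in WT and 0.806, 0.821 and 0.797 in KO, and at TTT it was 0.635, 0.655 and 0.616 in WT and 0.854, 0.770 and 0.857 in KO. The KO libraries were nearer to 1 than the WT libraries at both codons, and all 6 libraries stayed below it. In WT brain TTC had the lowest ratio of the 61 codons and TTT the third lowest; in KO brain they were in places 10 and 12 from the bottom. Under the other weights and gene sets tried, TTC kept place 1 or 2 in WT and took places 9 to 15 in KO, and TTT took places 2 to 4 in WT and 12 to 20 in KO. The change in the ratio was 0.44 (SE 0.0452, limma adjusted p = 3.16e-06) at TTC and 0.38 (SE 0.0484, limma adjusted p = 2.55e-05) at TTT on the log2 scale. These were 2 of the 12 codons called, and 3.28% of the 61 were called.

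The mitochondrially encoded genes hold 10.8% of the Phe codons so expected in WT, with 6.06% of the counts; the cytochrome oxidase gene COX1 alone gave 4.58% and the synaptic vesicle gene Syp 1.70%. Mitochondrial ribosomes use other tRNAs, and whether the A-site table holds their footprints is not given in the sources used here. Without these genes the ratios were 0.623 in WT and 0.846 in KO for TTC, and 0.679 and 0.888 for TTT.

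The Tyr codons were also low against expectation in WT, with ratios of 0.666 ± 0.0177 at TAC and 0.769 ± 0.0373 at TAT, against 0.737 ± 0.0231 and 0.746 ± 0.0382 among KO mice (SD, n = 3 each). Asp codons were above expectation, at 1.22 and 1.37 in WT and 1.17 and 1.30 in KO for GAC and GAT. For TAC the change in ratio was 0.14 (limma adjusted p = 0.0758) and for TGT it was -0.15 (limma adjusted p = 0.0758). Both passed when total mRNA counts times protein length took the place of ribosome-contained counts (limma adjusted p = 0.0444 each), and TGT also without KO replicate 3 (limma adjusted p = 0.0167). CAT, at 0.10, passed without KO replicate 3 as well (0.16, limma adjusted p = 0.0297) and was 0.06 without WT replicate 1 or KO replicate 1. With all mice none of the 8 codons other than TTC, TTT, TAC and TGT passed, with estimates between -0.07 for GAT and 0.10 for CAT.

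The T-ending codon was more frequent in the A site than encoded, within its amino acid, for all 6 amino acids in WT on average. This was not particular to these amino acids. In the genetic code's other pairs, the mean WT ratio of observed to expected share was also higher at the T-ending codon, except for valine. It was 0.918 at GGT and 0.775 at GGC (glycine), against 0.889 at GTT and 0.913 at GTC (valine). For the 6 amino acids the margin ran from 1.02 percentage points for His to 3.90 for Asn. All 3 WT libraries were above expectation for Phe, Tyr, Asn and Asp, against 2 of 3 for His and Cys. In KO brain the margin was 0.533 for Phe, 0.272 for Tyr, 2.82 for His, 3.11 for Asn, 2.64 for Asp and -1.44 for Cys. Asn and Asp were thus above expectation in all 6 libraries, while Cys was below it in each KO library.

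Of 22 genes that charge or modify the tRNAs of these codons, 5 had enough counts to be tested. The other genes are each listed under 2 or more accessions and had at most 2 ribosome-contained counts in all, as Yars did. The 5 were the synthetases Hars and Dars, the Ftsj1 partner Wdr6, and Trmt12 and Lcmt2, which help to make the bulky base beside the anticodon of tRNA-Phe. In ribosome-contained mRNA 0 of 5 passed (edgeR), against a background of 0.211% of rows, with 0 at an unadjusted p under 0.05. In total mRNA 0 of 5 passed, against 0.329%, with Dars (-0.26, edgeR adjusted p = 0.463) and Wdr6 (0.11, edgeR adjusted p = 0.605) at an unadjusted p under 0.05; DESeq2 called 0 in either. Wdr6 had 849, 920 and 1126 counts in the WT ribosome libraries and 869, 869 and 807 in KO, which is 737 ± 46.4 and 782 ± 35.6 CPM (SD, n = 3 each; log2 fold change 0.09, edgeR adjusted p = 0.680). For Hars the log2 fold change in ribosome-contained mRNA was -0.09, for Trmt12 -0.31, for Dars 0.02 and for Lcmt2 0.03 (edgeR adjusted p 0.614 to 0.984). The Trmt12 value was -0.13 without WT replicate 3 and -0.47 without WT replicate 2, and that of Wdr6 in total mRNA was 0.07 without WT replicate 1. Wdr6 overlaps Dalrd3, Hars overlaps Hars2 and Lcmt2 overlaps Adal, so that their reads may be split or mixed.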

How the data were processed

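The authors deposited raw counts of A-site codons for 6 MiSeq libraries and raw counts per RefSeq accession for 12 HiSeq libraries, per the file headers. The submitters' processing notes name Bowtie2, HISAT2, HTSeq and mm10, with no role; how the A site was placed is not given in the sources used here. Same-named ribosome columns were assigned to an instrument by table name. Replicates are separate mice, numbered per genotype in the labels.

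The 61 sense codons, or their sums for 20 amino acids, entered a robust quasi-likelihood test (edgeR 4.0.16, R 4.3.3) with the sum of sense codons as library size, no TMM and no filter; stop codons were left out. Ratios of T-ending to C-ending counts (pseudocount 0.5, 16 pairs), expected shares and log2 observed over expected shares (61 codons each) were tested with limma 3.58.1. Adjusted p-values are Benjamini-Hochberg adjusted over all features of a fit, with a threshold of 0.05. Standard errors are those of the models, and for the balances limma gave all 16 pairs the same one. Some SDs between mice were below counting error, as at CAC in WT (0.0230 against 0.0443 percentage points), and are then not a measure of the error. Expected shares used coding sequences of GENCODE M21 (GRCm38), matched by accession or, failing that, the longest of the gene; matched rows held 92.9% of HiSeq counts. Genes were tested with edgeR over all rows (TMM, minimum count 10, minimum total 15). The edgeR tests of codons and of genes and the limma test of balances were tried on simulated data, and the other tests were not. The simulated balance change was larger than any balance change estimated here. DESeq2 1.42.0 and the other alternatives are given in the closing section.

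All 12 codons are named; of the genes, each called and the 6 with the largest ribosome counts, of which 5 were tested. The codons, gene list and tests were chosen with earlier results of these data known. In a chi-square test of the sense codons, WT replicates 1 and 2 (p = 0.0827), WT replicates 2 and 3 (p = 0.0810) and KO replicates 1 and 2 (p = 0.172) did not differ detectably beyond sampling noise, while WT replicates 1 and 3 (p = 0.0227), KO replicates 1 and 3 (p = 1.71e-05) and KO replicates 2 and 3 (p = 0.0102) did; as the labels give separate mice, each was kept, and summing replicates 1 and 2 was an alternative.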

Additional observations from a re-analysis of the deposited data

How the results depend on the processing

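The rise of TTC and TTT kept its direction and its side of the threshold under all 16 alternatives, with log2 fold changes from 0.42 to 0.48 and from 0.38 to 0.44, as did that of Phe codons together (0.41 to 0.46). The count of called codons ran from 2 to 4. The count of called amino acid totals fell from 2 to 1, through Asp, with DESeq2, limma, stop codons included, thinned counts, replicates 1 and 2 summed, the replicate block, or either library size without Phe (leaving out a mouse: 1 to 2). Called balances ran from 0 to 1 with a mouse left out. Observed over expected gave 4 in place of 2 with total mRNA counts, alone (chosen after seeing the data) or times protein length, and 2 to 4 with a mouse left out. Expected shares gave 0 in place of 2 with either total mRNA weighting and with the replicate block, and 0 to 5 with a mouse left out. The cause was not tested.

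The 12-codon share differed by -0.124 without Phe and the T-ending share by -0.406 over the queuosine amino acids (chosen after seeing the data). Estimates near 0 changed sign: CAC (0.00455 with TMM, 0.00780 without Phe and 0.00599 with the other 10 codons as library size), AAT (-0.0147) and TGC (-0.0193) with thinned counts, and, for observed over expected, CAC (0.00106 without mitochondrial genes) and TGC (-0.00137 with total mRNA counts). Leaving out a mouse gave ranges across 0 for TAT (-0.0739 to 0.000517), CAC (-0.0266 to 0.00997), AAT (-0.00441 to 0.0232) and TGC (-0.0206 to 0.0434), for the balances of Phe (-0.0833 to 0.0130) and Asp (-0.00759 to 0.0203), for observed over expected at CAC (-0.0248 to 0.0100), AAT (-0.0134 to 0.0214) and TGC (-0.00924 to 0.0558), and for Hars (-0.138 to 0.000275), Dars (-0.0413 to 0.0569) and Lcmt2 (-0.0942 to 0.184) in ribosome-contained and Lcmt2 (-0.0762 to 0.209) in total mRNA.

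Mice with the same number did not deviate together (correlations over 61 codons -0.0522, 0.157 and -0.0137), so the numbers were not taken as pairs; with the replicate block TTC was at 0.444848 and TTT at 0.401675, and 3 codons were called. Counts of 383 to 2481 per codon and library limit what can be seen.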
